A study of Homo sapiens with 8 samples.

Results

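The breast cancer line HCC1937 and the same line with exogenous wild-type BRCA1 (HCC1937+BRCA1) were compared after both had been exposed to COH29, at 10 µM for 24 h. The comparison uses 4 of the 8 arrays of the series: the 2 arrays titled HCC1937BRCA1-COH29 minus the 2 titled HCC1937-COH29. The other 4 arrays, 2 per line without COH29, show which differences between the lines were present without the drug. HCC1937 carries a truncated BRCA1 and is labelled BRCA1 deficient; no vehicle is named, so "without COH29" is all that can be said of the controls. How HCC1937+BRCA1 was made, and whether it is a clone, the labels leave unstated, and with 1 derived line BRCA1 and other differences between the lines cannot be told apart. Whether replicate arrays stand for separate cultures is not stated either, so p-values measure the spread between these arrays, which may be technical.

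BRCA1 is needed to repair broken DNA by homologous recombination, and cells without working BRCA1 depend on other repair routes. COH29 inhibits ribonucleotide reductase, the enzyme that converts ribonucleotides to deoxynucleotides, and so limits DNA synthesis. Cells short of nutrients or under stress in the endoplasmic reticulum switch on the integrated stress response, in which the transcription factor ATF4 and its partners raise genes of amino acid supply and of cell death.

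Each value is a log2 intensity of 1 probe set per gene on an Affymetrix gene array, a difference of 1 is 2-fold, and differences are given as HCC1937+BRCA1 minus HCC1937. In all, 18417 genes were tested. A gene was called when limma's Benjamini-Hochberg adjusted p was under 0.05. Errors of differences are standard errors (SE) of the fit, with n = 2 arrays per group. Across genes, replicate arrays correlated with r of 0.996 to 0.997, and arrays of different lines with COH29 with r of 0.970 to 0.972. The number of arrays limits the precision, and the median SE of a line difference was 0.103.

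With COH29, 5821 genes, 31.6% of those tested, were called different between the lines. Of these, 2615 (14.2% of genes tested) were higher and 3206 (17.4%) lower in HCC1937+BRCA1. At least 2-fold differences were found in 909 of them, 436 higher (2.37%) and 473 lower (2.57%). The median absolute difference over all genes was 0.18. Higher genes made up 44.9% of the calls (2615 against 3206 lower). Once all arrays had been shifted to one median they made up 49.8% (2924 against 2949), and after cyclic loess 49.9% (3009 against 3018). The excess of lower calls thus depended on the scaling of the arrays.

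The largest positive difference was that of ZNF667-AS1, an antisense RNA gene next to a zinc finger gene. It measured 5.19 and 4.36 in HCC1937 and 11.61 and 11.73 in HCC1937+BRCA1. Its difference was 6.89 ± 0.27 (SE), and the arrays of the lines did not overlap. The deposited values carry no detection call, so where a line reads this low the difference may be set by background, and no fold is given for such genes. CNTN1, a neuronal cell adhesion molecule of the contactin family, measured 4.92 and 5.34 against 11.02 and 10.92. That is a difference of 5.84 ± 0.21, and both arrays of HCC1937+BRCA1 lay above both of HCC1937. GPC6, a cell surface heparan sulfate proteoglycan, differed by 4.95 ± 0.09 and ADGRL2, an adhesion receptor of the latrophilin family, by 4.74 ± 0.10.

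DSC3, a desmosomal cadherin of basal epithelium, measured 7.21 and 7.55 in HCC1937 and 11.74 and 11.59 in HCC1937+BRCA1, a difference of 4.29 ± 0.13. CDH19, another cadherin gene, differed by 3.91 and TPM2, which encodes an actin-binding tropomyosin, by 3.85. The other genes among the 12 with the largest positive differences were SLITRK6 (4.07), the quinone reductase gene CRYZ (3.99), TDRD12 (3.98), a gene of the germline piRNA pathway, the cell surface peptidase gene MME (3.90) and the carbonic anhydrase gene CA2 (3.85). The arrays of the lines did not overlap for any of the 12, which the choice of these genes fixed. Over all genes, 28.6% were higher and 32% lower on both arrays of HCC1937+BRCA1 than on both arrays of HCC1937.

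The largest negative differences were in CD36, a receptor that takes up fatty acids, and SLC6A14, a transporter of neutral and basic amino acids. CD36 measured 10.45 and 10.48 in HCC1937 and 4.58 and 4.92 in HCC1937+BRCA1, a difference of -5.72 ± 0.13, with the lower level among the low values just described. SLC6A14 measured 10.97 and 11.09 against 5.60 and 5.52, a difference of -5.47 ± 0.16. Both genes were thus high on the HCC1937 arrays and low on those of HCC1937+BRCA1.

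Next came PLXDC2 (-4.42), the granzyme B inhibitor gene SERPINB9 (-4.33), the membrane mucin gene MUC4 (-4.30), the stem cell transcription factor gene ZFP42 (-4.29), TMEM45B (-4.21) and the keratin gene KRT23 (-4.14). LCP1, an actin-bundling protein mostly found in blood cells, differed by -4.12, the ubiquitin ligase gene TRIM31 by -3.98, PTGS2, the inducible cyclooxygenase, by -3.82, and PGCKA1 by -3.79. All 24 of these genes were also called in the same direction without COH29.

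**Figure D1:**
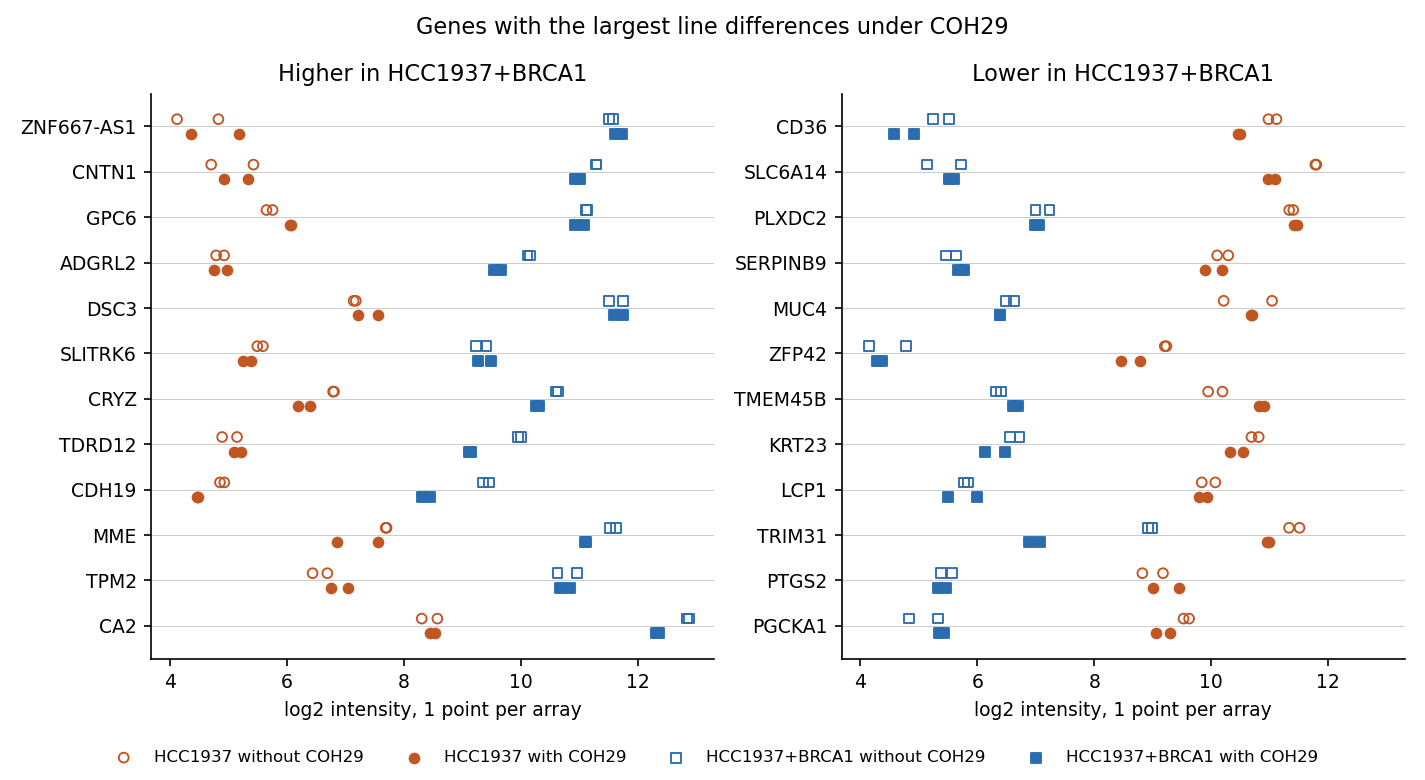
Log2 intensity on each array (x axis, 1 point per array) of the 12 genes with the largest positive (left) and the 12 with the largest negative (right) line differences under COH29. Orange circles are HCC1937 and blue squares HCC1937+BRCA1, filled with COH29 and open without; for CD36 the filled orange points lie at 10.45 and 10.48 and the filled blue points at 4.58 and 4.92.

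The line difference with COH29 was largely the one measured without it. Of the 5821 genes called with COH29, 4152 (71.3%) were called in the same direction on the 4 arrays without COH29, where 5749 genes (31.2% of those tested) were called, and 36 in the opposite direction. Of the 909 genes that differed at least 2-fold, 881 (96.9%) were called in the same direction without COH29. The 2 comparisons share no arrays, but the variance of each gene came from 1 fit to all 8 arrays, so their calls are not independent. Across the 18417 genes, which are not independent replicates, their differences correlated with r = 0.881, and the slope of the difference with COH29 on that without was 0.845.

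Of the 57 genes that differed at least 8-fold with COH29, 30 were higher and 27 lower, and 56 were called in the same direction without it. The other was VTRNA1-1, a vault RNA gene, named here after its value was seen. It measured 6.14 and 5.67 in HCC1937 and 10.46 and 8.50 in HCC1937+BRCA1, a difference of 3.57 ± 0.71 (limma adjusted p = 0.00418). This call ended with a mean-variance trend and robust moderation, set together (limma adjusted p = 0.0618), and without moderation of the variances (0.0864). Elsewhere, "a mean-variance trend" or "the trend" stands for this joint setting, whose 2 parts were not tried apart.

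Whether the line difference itself changed with COH29 was tested as the difference with COH29 minus that without. This change was called for 176 genes (0.956% of those tested), upward for 100 (0.543%) and downward for 76 (0.413%). In 27 of them the difference kept its direction and widened, and in 57 it kept its direction and narrowed. Another 26 were called in opposite directions with and without the drug. Of the 1633 genes called with COH29 but not without it, 34 had a called change, so most of these are not shown to differ in that respect. The count of 176 rests on the pooled variances and on each array: it fell to between 41 and 67 without any 1 of the 8 arrays, which also removes 1 of 4 residual degrees of freedom, and to 3 without moderation.

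**Figure D2:**
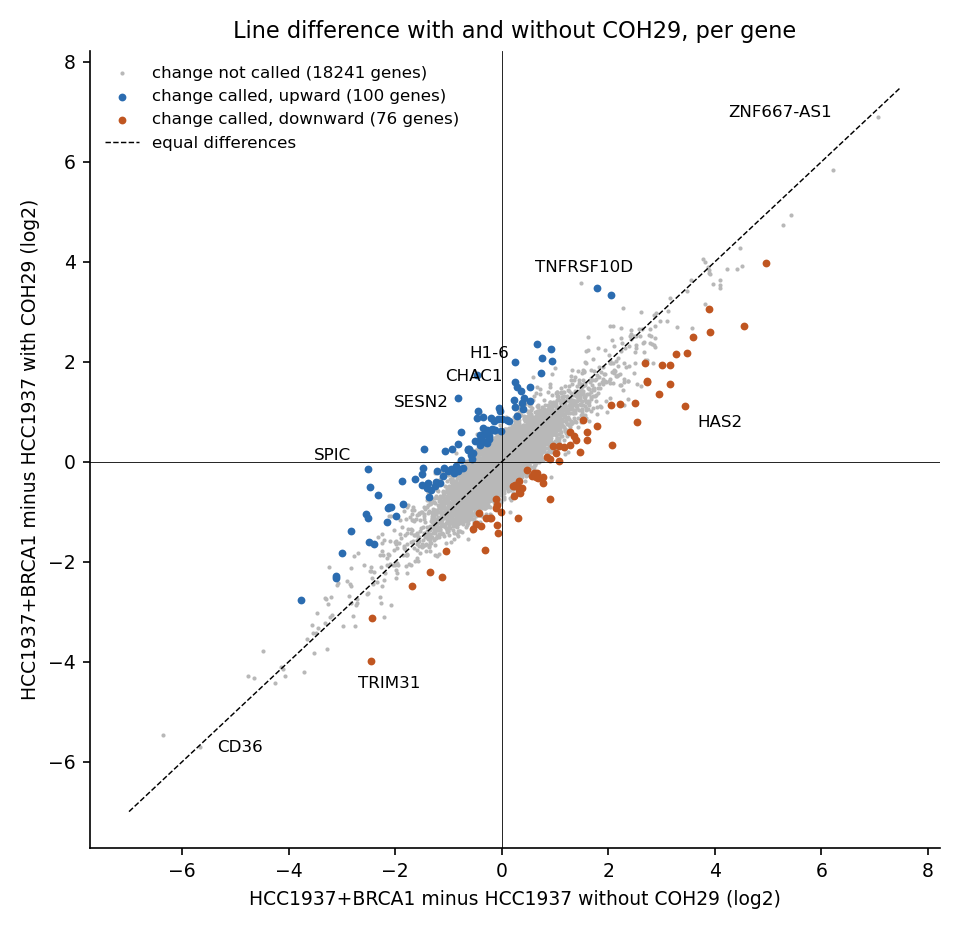
Line difference (HCC1937+BRCA1 minus HCC1937, log2) of each of 18417 genes without COH29 (x axis) and with it (y axis). The dashed line marks equal differences; blue points are the 100 genes whose difference changed upward with COH29 and orange points the 76 that changed downward, while CD36 and ZNF667-AS1 lie near the line.

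CHAC1, which encodes an enzyme that degrades glutathione and is a target of ATF4, had one of the largest upward changes. With COH29 it measured 11.04 and 11.10 in HCC1937 and 12.33 and 12.37 in HCC1937+BRCA1, so that it was higher by 1.28 ± 0.08. Without the drug it was lower in HCC1937+BRCA1 by -0.83. The change of 2.11 was called (limma adjusted p = 0.000438), without each array in turn (at most 0.00724) and without moderation too. H1-6, a linker histone gene known from testis, measured 5.75 and 5.67 against 7.40 and 7.49 with COH29 and changed by 2.20, from -0.46 to 1.74. B3GALT5-AS1, an antisense RNA gene, changed by 1.96, from -2.47 to -0.51, so the lines lay closer together with COH29.

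Downward changes included HAS2, which makes the matrix polysaccharide hyaluronan. It measured 5.06 and 5.09 in HCC1937 and 6.03 and 6.34 in HCC1937+BRCA1, and its difference changed by -2.33, from 3.44 to 1.11. The difference of CD180, a receptor of the Toll-like family, changed by -1.73, from 2.07 to 0.34. CXCL1, a chemokine that attracts neutrophils, changed from 0.91 to -0.74, so that it was higher in HCC1937+BRCA1 without COH29 and lower with it. TRIM31 changed by -1.52 to -3.98, and TNFRSF10D, a decoy receptor for the death ligand TRAIL, by 1.67 to 3.47, both away from 0. The changes of H1-6, B3GALT5-AS1, HAS2, CD180, CXCL1, TRIM31 and TNFRSF10D were called without each array in turn, but not without moderation. SPIC changed by 2.37 (adjusted p = 0.0415), a call that ended without any 1 of 7 of the 8 arrays, and its difference with COH29 was -0.14 ± 0.30.

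Genes of the integrated stress response were higher in HCC1937+BRCA1 with COH29 more often than lower, and the other way without it. Of 31 tested members, 12 were higher and 6 lower with COH29 (38.7% and 19.4%, beside 14.2% and 17.4% of all genes), with a median difference of 0.12. Without COH29, 2 were higher and 15 lower (16.4% and 14.8% of all genes), with a median of -0.26. By limma, the change of the line difference was called upward for 12 members and downward for 0 (18 and 0 at an unadjusted p under 0.05). The excess of higher over lower members with COH29 rested on single arrays. It was lost or nearly lost without HCC1937 COH29 replicate 1 or without HCC1937+BRCA1 COH29 replicate 2. Without moderation 8 were higher and 6 lower. The 12 upward changes fell to 5 or 6 without any 1 of the 8 arrays and to 1 without moderation. Leaving out an array also removes a residual degree of freedom.

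SESN2, a stress-induced inhibitor of growth signalling, measured 10.04 and 10.09 in HCC1937 and 10.98 and 11.16 in HCC1937+BRCA1 with COH29. It was higher by 1.01 ± 0.09 with the drug and at -0.46 without it, a change of 1.46. ALDH1L2, a mitochondrial folate enzyme, measured 8.38 and 8.42 against 10.30 and 10.03, a difference of 1.77 ± 0.14. ASNS (asparagine synthetase) and DDIT3, which encodes the stress transcription factor CHOP, were chosen after their values were seen. ASNS measured 10.48 and 10.48 against 11.32 and 11.40 with COH29, a difference of 0.89 ± 0.09 beside -0.36 without it. DDIT3 measured 10.74 and 10.79 against 11.52 and 11.72, a difference of 0.85 ± 0.11.

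Not all members were higher. CTH, the enzyme that makes cysteine from cystathionine, measured 11.66 and 11.68 in HCC1937 and 9.32 and 9.46 in HCC1937+BRCA1, a difference of -2.28 ± 0.10 with COH29 and -3.12 without. SLC7A1, a transporter of cationic amino acids, differed by -1.13 and -1.27. Both genes were lower in HCC1937+BRCA1 on all arrays of either condition. ATF4 itself was not called, at 0.18 ± 0.10 (limma adjusted p = 0.219). The changes of SESN2 and ASNS were called without each array in turn. Those of ALDH1L2, CTH and DDIT3 were called on all 8 arrays, with adjusted p of 0.0496, 0.0316 and 0.0359, and ended without any 1 of 7, 8 and 8 arrays.

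The CHAC1 and ASNS promoters are shown because both genes changed upward and each holds the 8 letters TGATGNAA that ATF4 with a C/EBP partner is known to bind. They are the 250 bases before the RefSeq start site on GRCh38.p14, CHAC1 at chr15:40953221-40953470 (plus strand) and ASNS at chr7:97872409-97872658 (minus strand, 1 of 2 listed starts), 5′ to 3′ along the gene, with the match in capitals. In CHAC1 the capitals show it in reverse complement.
CHAC1: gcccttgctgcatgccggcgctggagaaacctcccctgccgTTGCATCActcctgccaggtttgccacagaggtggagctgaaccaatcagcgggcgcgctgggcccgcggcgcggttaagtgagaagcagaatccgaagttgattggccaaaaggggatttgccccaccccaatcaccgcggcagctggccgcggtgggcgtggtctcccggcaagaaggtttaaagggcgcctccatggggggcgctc
ASNS: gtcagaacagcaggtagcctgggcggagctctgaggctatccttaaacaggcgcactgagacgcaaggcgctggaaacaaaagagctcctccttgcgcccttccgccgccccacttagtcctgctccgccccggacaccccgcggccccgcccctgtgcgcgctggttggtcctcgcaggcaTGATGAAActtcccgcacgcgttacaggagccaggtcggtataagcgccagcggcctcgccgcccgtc

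The motif was searched on both strands. Of the 26 listed stress genes with a promoter in the table, 5 held a match: ASNS, ATF3, CEBPG, CHAC1 and FGF21. Over all 35116 promoters of the table the share was 3.14%. That share counts each promoter, while a listed gene counted when any of its listed starts held a match, so the shares are not strictly alike. A match is a description of the letters and not a measured binding site. Among these genes, CEBPG and FGF21 were not called different between the lines with COH29, at 0.01 and 0.12, and ATF3 was higher by 0.48 ± 0.13. SESN2, CTH and DDIT3, whose changes were also called upward, held no match.

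**Figure D3:**
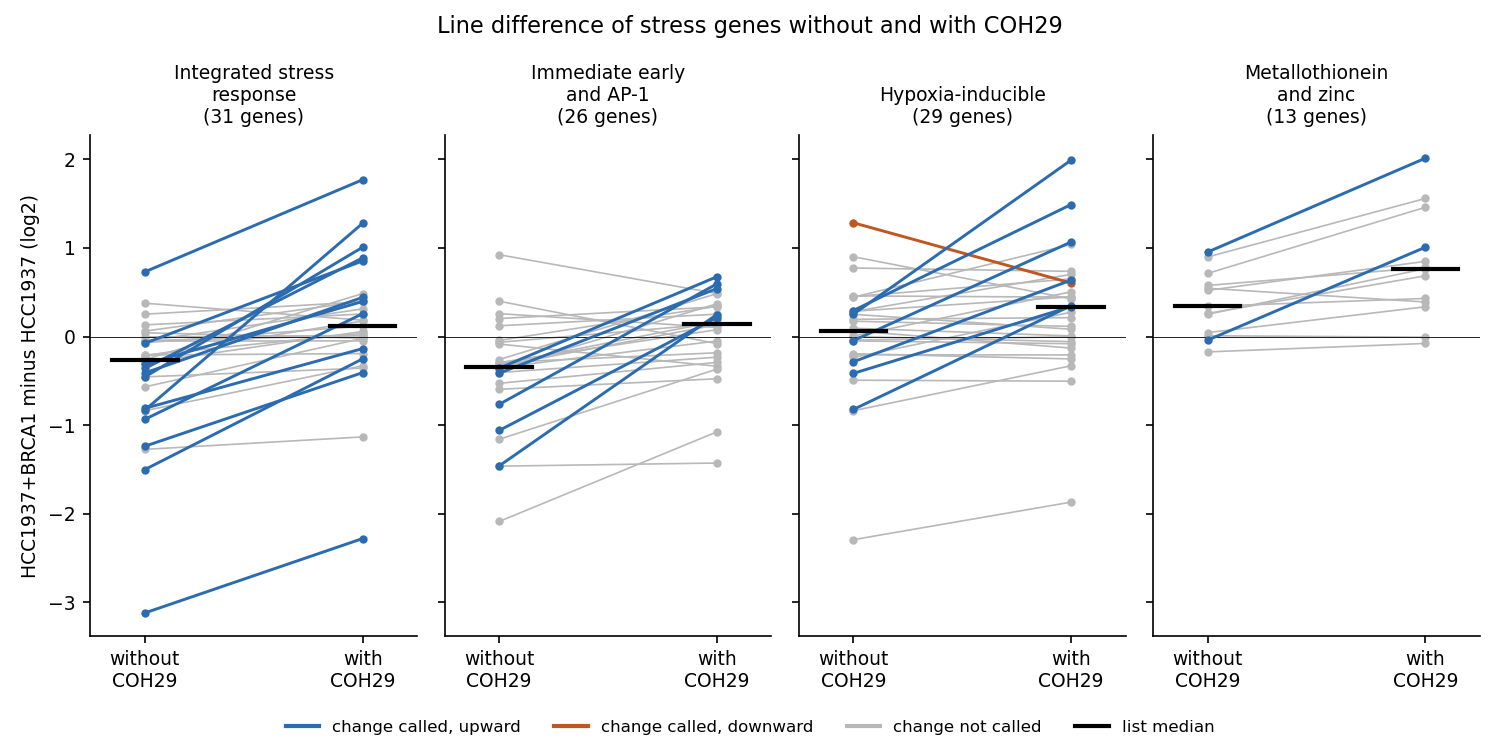
Line difference (HCC1937+BRCA1 minus HCC1937, log2) of each member of 4 gene lists without and with COH29, joined by a line per gene. Blue and orange lines are genes whose change was called upward and downward, grey lines those not called, and black bars list medians, which go from -0.26 to 0.12 for the integrated stress response and from 0.34 to 0.77 for metallothionein and zinc genes.

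Immediate early genes, which respond within minutes to growth factors and stress, showed a like pattern of counts. With COH29, 8 of 26 were higher and 5 lower (30.8% and 19.2%, beside 14.2% and 17.4% of all genes), with a median of 0.14. Without it, 3 were higher and 15 lower (16.4% and 14.8% of all genes), with a median of -0.34. The change was called upward for 5 (FOS, JUN, EGR1, NR4A1 and DUSP1) and downward for 0 by limma (13 and 2 at an unadjusted p under 0.05). JUN, a subunit of the transcription factor AP-1, measured 10.79 and 10.90 against 11.40 and 11.37, higher by 0.54 ± 0.09 with COH29 beside -0.41 without. FOS, its partner, was at -1.46 without COH29 and at 0.25 ± 0.16 with it, where it was not called. DUSP1, a phosphatase that turns MAP kinases off, was at -0.77 without and at 0.59 ± 0.11 with COH29, and its change was called without each array in turn. HBEGF, a ligand of the EGF receptor, and DUSP5 were lower with COH29, by -1.08 and -1.43. The 8 higher became 5, 6 and 4 without HCC1937 COH29 replicate 1, HCC1937+BRCA1 COH29 replicate 1 and replicate 2, where the 5 lower became 4, 3 and 4, and without moderation 5 were higher and 3 lower. The 5 changes became 1 to 4 without any 1 of the 8 arrays, and 0 without moderation.

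Hypoxia-inducible genes were higher in HCC1937+BRCA1 for 15 of 29 members and lower for 3 (51.7% and 10.3%, beside 14.2% and 17.4% of all genes). Their median was 0.34. Without COH29 the counts were 8 and 5 (16.4% and 14.8% of all genes) and the median 0.06. ANKRD37, a target of hypoxia-inducible factor, measured 8.41 and 8.51 in HCC1937 and 10.28 and 10.62 in HCC1937+BRCA1, a difference of 1.99 ± 0.19. ANGPTL4, a secreted inhibitor of lipoprotein lipase, measured 10.26 and 10.47 against 11.78 and 11.93 and differed by 1.49 ± 0.10, beside 0.29 without COH29. PFKFB4, which sets the level of a glycolysis activator, differed by 1.07 ± 0.08 with and -0.05 without, and HK2, a hexokinase, by 0.70 and 0.28.

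The change was called upward for 6 of these genes and downward for 1, NDRG1, whose difference narrowed from 1.28 to 0.60. CA12, a membrane carbonic anhydrase, went against the group at -1.87 with and -2.29 without COH29. The changes of ANGPTL4 and PFKFB4 were called without each array in turn, while that of ANKRD37 ended without any 1 of 6 of the 8 arrays. The 6 changes became 3 or 4 without any 1 of the 8 arrays and 0 without moderation, and the 1 downward became 0 in each of these cases.

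Metallothioneins are small cysteine-rich proteins that bind zinc, copper and cadmium, and their genes are raised by the metal sensor MTF1. Of 13 metallothionein and zinc genes, 11 were called higher by limma in HCC1937+BRCA1 with COH29 and 0 lower. That is 84.6% and 0%, beside 14.2% and 17.4% of all genes, and the counts were the same at an unadjusted p under 0.05. The median was 0.77. Without COH29, 7 were higher and 0 lower, with a median of 0.34. MT1X measured 9.79 and 9.83 in HCC1937 and 11.94 and 11.70 in HCC1937+BRCA1, a difference of 2.01 ± 0.11 beside 0.95 without COH29. MT2A measured 12.44 and 12.29 against 13.83 and 14.01, a difference of 1.56 ± 0.12 beside 0.90. MT1G differed by 1.46, MT1F by 1.01, MT1B by 0.85, the zinc exporter gene SLC30A1 by 0.77 and MTF1 itself by 0.43.

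MT3 and SLC30A10 were not called, at -0.01 and -0.08. Metallothionein genes are so alike in sequence that one may add to another's signal, and their count is not a count of separate measurements. The change with COH29 was called for MT1X (1.06, limma adjusted p = 0.0215) and MT1F (1.05, adjusted p = 0.0473). These calls ended without any 1 of 6 and 7 of the 8 arrays, and the count of 2 was 0 to 2 over these fits, 1 after cyclic loess and 0 without moderation.

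The promoters of MT1X and MT2A are shown because their 250 bases hold several copies of the core of the metal response element that MTF1 binds, TGCACNC or TGCGCNC, found on both strands (the 2 forms differ in 1 letter and cannot match at the same place). They lie on the plus strand at chr16:56682220-56682469 and chr16:56608334-56608583 (RefSeq starts, GRCh38.p14), with matches in capitals.
MT1X: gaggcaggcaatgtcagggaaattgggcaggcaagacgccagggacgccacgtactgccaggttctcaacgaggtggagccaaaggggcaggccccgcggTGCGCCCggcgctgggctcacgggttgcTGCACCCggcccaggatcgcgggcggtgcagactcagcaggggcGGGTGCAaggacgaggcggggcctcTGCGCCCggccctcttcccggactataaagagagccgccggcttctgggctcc
MT2A: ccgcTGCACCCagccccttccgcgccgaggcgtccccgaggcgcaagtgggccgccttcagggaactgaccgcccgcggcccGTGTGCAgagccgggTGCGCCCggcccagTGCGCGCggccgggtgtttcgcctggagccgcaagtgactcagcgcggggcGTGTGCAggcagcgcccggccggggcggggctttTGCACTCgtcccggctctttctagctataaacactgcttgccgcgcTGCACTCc

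MT1X held 4 and MT2A 7 matches. Of the 8 listed metallothionein and zinc genes with a promoter in the table, 5 held at least 1 match and 4 held 3 or more (MT1B, MT1H, MT1X and MT2A). Over all 35116 promoters, counted singly and not by gene, the shares were 24.8% and 1.58%.

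The unfolded protein response answers misfolded protein in the endoplasmic reticulum. Of its 21 tested genes, 6 were higher and 4 lower (28.6% and 19%, beside 14.2% and 17.4% of all genes), with a median of 0.07. DNAJB9, a co-chaperone, was higher by 1.28 ± 0.09 and PDIA4, a disulfide isomerase, by 0.62, while SEL1L and EDEM1, which act in degrading misfolded proteins, were lower by -0.64 and -0.62. The 6 became 3 without either HCC1937 COH29 array, without the second of HCC1937+BRCA1, and with only the 4 arrays compared.

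Interferon-stimulated genes, which cells switch on against viruses, were mostly lower in HCC1937+BRCA1. Of 34 members 25 were lower and 1 higher (73.5% and 2.94%, beside 17.4% and 14.2% of all genes), with a median of -0.96. Without COH29, 23 were lower and 1 higher, with a median of -0.72. IFI27 measured 9.98 and 9.87 in HCC1937 and 7.04 and 7.17 in HCC1937+BRCA1, a difference of -2.82 ± 0.11, or about 7.05-fold. OAS2, a sensor of double-stranded RNA, measured 10.64 and 10.69 against 8.29 and 8.40 and differed by -2.32 ± 0.08. MX2 differed by -2.32 ± 0.09, IFI44L by -2.20 and RSAD2, which encodes the antiviral protein viperin, by -2.07.

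The exception was SAMD9, higher by 0.71. ISG15, USP18, BST2 and RIGI were not called, at -0.04, 0.09, 0.04 and -0.08. The count of 1 higher was 2 without HCC1937 COH29 replicate 2, without genes of low level, after cyclic loess and with a mean-variance trend. The change was called for MX2 (0.80), which narrowed, and for IFI44L (-0.86) and PARP9 (-0.88), which widened. Without any 1 array, at most 1 of these 3 changes was called upward and at most 1 downward, and without moderation 0.

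Antigen presentation genes were mostly lower too: 11 of 14 were lower and 1 higher (78.6% and 7.14%, beside 17.4% and 14.2% of all genes). Their median was -0.53 with and -0.55 without COH29. HLA-DPA1, a chain of a class II molecule, measured 8.31 and 8.67 against 6.15 and 6.51, a difference of -2.16 ± 0.15. The immunoproteasome subunit gene PSMB9 differed by -1.34, HLA-DMA by -1.15 and the peptide transporter gene TAP1 by -1.04. CD274, which encodes the checkpoint ligand PD-L1, was the 1 member higher in HCC1937+BRCA1: it measured 6.43 and 6.91 in HCC1937 and 7.98 and 7.90 in HCC1937+BRCA1, a difference of 1.27 ± 0.14. 

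Inflammatory cytokine and chemokine genes were lower for 13 of 26 members and higher for 2 (50% and 7.69%, beside 17.4% and 14.2% of all genes). The median was -0.36 with and -0.31 without COH29. Beside PTGS2, CCL5, a chemokine that attracts T cells, measured 11.42 and 11.41 against 9.69 and 9.90, a difference of -1.62 ± 0.09. The leukocyte adhesion molecule gene ICAM1 differed by -1.54 ± 0.12, the cytokine gene LIF by -1.31 and the prostaglandin synthase gene PTGES by -1.16. The 2 higher were IL6 (0.37) and IL1A (0.42, beside -0.49 without COH29). They became 1 without either HCC1937 COH29 array or HCC1937+BRCA1 COH29 replicate 1, and 0 without its replicate 2, without genes of low level or without moderation.

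**Figure D4:**
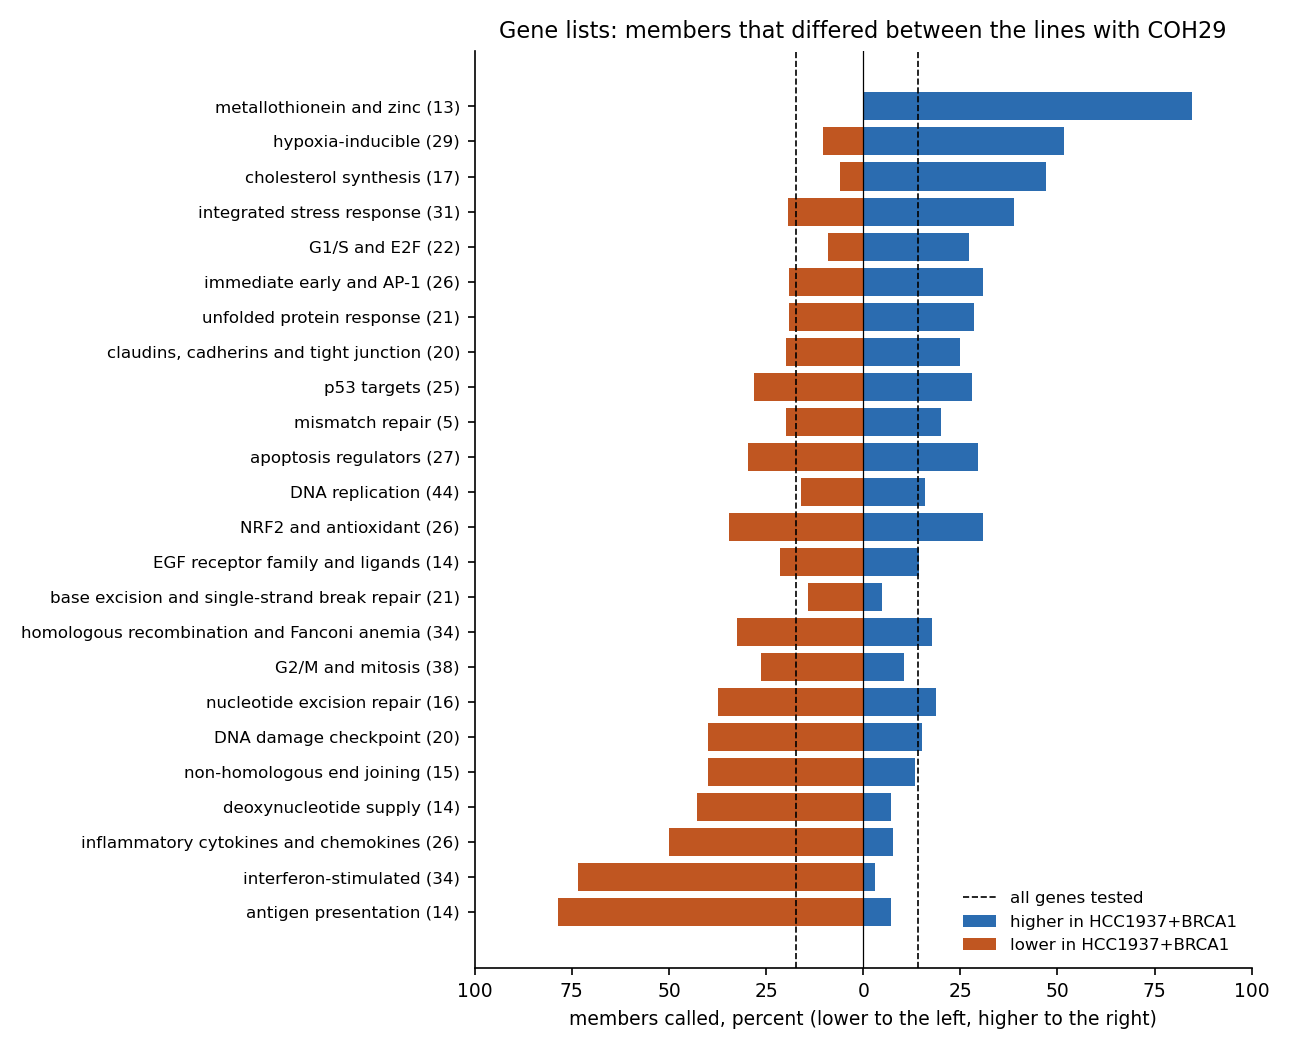
Percent of the tested members of each pathway gene list (number tested in brackets) that were called higher (blue, to the right) or lower (orange, to the left) in HCC1937+BRCA1 with COH29. Cell type marker lists and lists of genes by family name are not drawn. Dashed lines mark the same share over all genes tested, 14.2% higher and 17.4% lower; metallothionein and zinc genes reach 84.6% higher and antigen presentation genes 78.6% lower.

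BRCA1, the gene that defines the lines, measured 10.40 and 10.46 in HCC1937 and 10.25 and 10.07 in HCC1937+BRCA1 with COH29. Its difference of -0.27 ± 0.10 was not called (limma adjusted p = 0.0722). It was called without genes of low level (adjusted p = 0.0399) and with a mean-variance trend (0.0158). A truncated BRCA1 can still be transcribed, and whether the probe set covers the added copy is unknown here, so these values do not check the labels.

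Homologous recombination and Fanconi anemia genes were lower for 11 of 34 members and higher for 6 (32.4% and 17.6%, beside 17.4% and 14.2% of all genes). The median was -0.15 with and -0.02 without COH29. DNA2, a nuclease that resects broken ends, measured 9.63 and 9.38 in HCC1937 and 8.52 and 8.38 in HCC1937+BRCA1, a difference of -1.05 ± 0.11. PALB2, which brings BRCA2 to BRCA1, measured 10.70 and 10.62 against 9.93 and 9.80, a difference of -0.79 ± 0.09. UBE2T, the ubiquitin-conjugating enzyme of the Fanconi pathway, differed by -0.61. The change of the line difference was called by limma for 0 of the 34 (1 upward and 9 downward at an unadjusted p under 0.05), and for 1, downward, without genes of low level or with a mean-variance trend.

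In non-homologous end joining, 6 of 15 genes were lower and 2 higher (40% and 13.3%). The ligase gene LIG4 differed by -0.82 ± 0.10, its partner XRCC4 by -0.68 and the DNA-end binding subunit gene XRCC5 by -0.53. The 2 higher became 1 without HCC1937+BRCA1 COH29 replicate 1. In nucleotide excision repair, 6 of 16 were lower and 3 higher (37.5% and 18.8%, beside 17.4% and 14.2% of all genes). ERCC4, an endonuclease subunit gene, was at -0.80 and ERCC8 at -0.86. The 3 higher were not stable when HCC1937 COH29 replicate 1 was left out. MSH3, a mismatch recognition gene, measured 10.24 and 10.26 against 9.40 and 9.24, a difference of -0.93 ± 0.09 beside -0.90 without COH29. In base excision repair, 1 of 21 was higher and 3 lower, under the shares over all genes. The 3 became 1 without HCC1937 COH29 replicate 2 or HCC1937+BRCA1 COH29 replicate 1, and the 1 became 2 under 5 of the other settings.

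Of 20 DNA damage checkpoint genes, 8 were lower and 3 higher (40% and 15%, beside 17.4% and 14.2% of all genes), with a median of -0.22. RAD17, HUS1 and RAD1, which load and form the checkpoint clamp, differed by -1.10, -0.66 and -0.58, and CLSPN (claspin), which relays the signal to CHK1, by 0.77. The 8 lower became 4 without HCC1937 COH29 replicate 2, and the 3 higher became 6 after cyclic loess and 5 with a mean-variance trend. CDKN1A, the p21 inhibitor of cyclin-dependent kinases, measured 10.52 and 10.54 against 10.81 and 11.08, higher by 0.42 ± 0.13 (limma adjusted p = 0.0334). That call ended without moderation (adjusted p = 0.137), without HCC1937 COH29 replicate 1 (0.108) or replicate 2 (0.0983) and without HCC1937+BRCA1 COH29 replicate 2 (0.203).

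Among p53 target genes 7 of 25 were higher and 7 lower (28% each, beside 14.2% and 17.4% of all genes). PLK2 and GDF15, a stress cytokine, were lower by -1.47 and -1.45, and GADD45A, a growth arrest gene, was higher by 0.83. The 7 higher became 3, 4 and 3 without HCC1937 COH29 replicate 1, replicate 2 and HCC1937+BRCA1 COH29 replicate 2, 3 without moderation and 4 with only the 4 arrays compared. The 7 lower became 4 without HCC1937 COH29 replicate 2, without HCC1937+BRCA1 COH29 replicate 1 and with only the 4 arrays compared.

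The target of COH29, ribonucleotide reductase, has a large subunit, RRM1, and a small subunit, RRM2 in S phase or RRM2B under stress. RRM2B measured 10.54 and 10.59 in HCC1937 and 9.68 and 9.69 in HCC1937+BRCA1, lower by -0.87 ± 0.08 with COH29 (limma adjusted p = 5.71e-05) and by -0.81 without. RRM1 measured 11.07 and 11.13 against 10.93 and 10.75, a difference of -0.26 ± 0.09 that was not called (adjusted p = 0.0608). RRM2 measured 11.09 and 11.15 against 11.43 and 11.25, a difference of 0.22 ± 0.09 (adjusted p = 0.113), beside 0.57 without COH29, where it was called. The change of RRM2 was not called (-0.35, adjusted p = 0.305). RRM1 was called without genes of low level (0.0322), with a mean-variance trend (0.00856) and without HCC1937+BRCA1 COH29 replicate 1 (0.0441), and RRM2 after cyclic loess (0.0417) and with the trend (0.0249).

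Of 14 deoxynucleotide supply genes, 6 were lower and 1 higher (42.9% and 7.14%, beside 17.4% and 14.2% of all genes). DCK, which phosphorylates deoxycytidine, was lower by -0.60 ± 0.09, DCTPP1, which degrades dCTP, by -0.65, TK2, the mitochondrial thymidine kinase, by -0.44 and SAMHD1, which degrades deoxynucleotides, by -0.41. The 1 higher, the thymidylate synthase gene TYMS, was lost without any 1 of 6 of the 8 arrays, all but the 2 of HCC1937+BRCA1 without COH29, and with only the 4 arrays compared. The count was 2 after cyclic loess, with a mean-variance trend and without moderation.

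Of 44 DNA replication genes, 7 were higher and 7 lower (15.9% each), near the 14.2% and 17.4% of all genes. Without COH29, 16 were higher and 4 lower (16.4% and 14.8% of all genes). In the main limma fit the change of the line difference was called for 0 of the 44. At an unadjusted p under 0.05 it was upward for 0 and downward for 9. RFC3, a subunit of the clamp loader, measured 12.21 and 12.24 in HCC1937 and 10.94 and 11.02 in HCC1937+BRCA1, a difference of -1.24 ± 0.08. The origin factor genes ORC1 and CDT1 differed by 1.03 and 0.72, MCM7 by 0.58 and MCM3, another subunit of the same helicase, by -0.66. The 7 lower became 4 without HCC1937 COH29 replicate 2, the 7 higher became 12 after cyclic loess, and both moved with a mean-variance trend, to 11 higher and 12 lower.

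Of 38 G2/M and mitosis genes, 10 were lower and 4 higher (26.3% and 10.5%). KIF11, a spindle motor, measured 10.28 and 10.28 against 9.42 and 9.07, a difference of -1.04 ± 0.14. The mitotic kinase gene PLK1 differed by -0.92, TOP2A, which untangles DNA, by -0.81 and the cyclin gene CCNB1 by -0.66. In G1/S, 6 of 22 were higher and 2 lower (27.3% and 9.09%, beside 14.2% and 17.4% of all genes). The inhibitor genes CDKN2B and CDKN2A were higher by 0.73 and 0.59 and the kinase gene CDK6 by 0.62. The 2 lower became 0 or 1 without any 1 of the 4 arrays with COH29 and 1 with only those 4 arrays.

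Replication-dependent histone genes were higher for 15 of 57 members and lower for 17 with COH29 (26.3% and 29.8%, beside 14.2% and 17.4% of all genes). Without it, 17 were higher and 2 lower (16.4% and 14.8% of all genes). H1-1, a linker histone gene, measured 11.10 and 11.14 in HCC1937 and 9.39 and 9.33 in HCC1937+BRCA1, a difference of -1.76 ± 0.08 beside -0.31 without COH29. H3C10, a core histone gene, differed by 2.07 ± 0.13 beside 0.76. H2BC21 and H4C8 differed by 1.80 and 1.37, and by 1.87 and 1.42 without COH29. Many of these genes are nearly alike in sequence and may add to each other's signal. The change was called for 2 upward and 4 downward, for 1 or 2 and 1 to 3 without any 1 array, and for 3 and 12 without genes of low level. It was called for H1-1 without each array in turn and without moderation, and for H3C10 it ended without any 1 of 6 of the 8 arrays.

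Epithelial markers had nearly the same mean log2 level on the arrays with COH29, 11.20 to 11.25 in HCC1937 and 11.21 to 11.24 in HCC1937+BRCA1. Of the 11 tested, 2 were higher, CLDN4 (0.65) and CDH1 (0.27), and 2 lower, KRT19 (-0.81) and GRHL2 (-0.40), or 18.2% each. Both shares are near those over all genes, 14.2% higher and 17.4% lower. The 2 higher became 1 without any 1 of the 4 arrays with COH29 or with only those 4, and 4 after cyclic loess or with a mean-variance trend. Mesenchymal markers were higher for 8 of 15 members and lower for 2 (53.3% and 13.3%, beside 14.2% and 17.4% of all genes). Their median difference was 0.36, and their mean log2 level was 7.71 to 7.79 in HCC1937 and 8.31 to 8.43 in HCC1937+BRCA1. VIM (vimentin) measured 7.01 and 7.01 in HCC1937 and 10.71 and 10.58 in HCC1937+BRCA1, a difference of 3.64 ± 0.09. CDH2 (N-cadherin) measured 5.76 and 5.94 against 9.72 and 9.67, a difference of 3.84 ± 0.09. TWIST1 was higher by 0.65, while SNAI2, another regulator of this state, was lower by -0.86. The 8 became 5 without moderation.

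Basal mammary markers were higher for 5 of 11 members and lower for 2 (45.5% and 18.2%, beside 14.2% and 17.4% of all genes). Among the higher were DSC3, DSG3 (2.71 ± 0.08), KRT15 (0.77) and EGFR (0.76), while KRT5 was lower at -1.61 ± 0.10. Their mean log2 level was 10.42 to 10.51 in HCC1937 and 11.11 to 11.12 in HCC1937+BRCA1. Of 14 luminal markers, 5 were lower and 0 higher by limma (6 and 0 at an unadjusted p under 0.05), with AGR2 at -1.47, SPDEF at -1.21 and KRT19 at -0.81. Their mean log2 level was 9.19 to 9.22 in HCC1937 and 8.90 to 8.94 in HCC1937+BRCA1. The 5 became 3 without HCC1937+BRCA1 COH29 replicate 1, and the 0 higher became 1 after cyclic loess, with a mean-variance trend and without moderation.

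Of the markers of other cell types, CD14 measured 9.38 and 9.57 in HCC1937 and 6.62 and 6.81 in HCC1937+BRCA1 with COH29, a difference of -2.76 ± 0.12. The mean log2 level of the 9 leukocyte markers was 6.63 to 6.67 in HCC1937 and 6.22 to 6.25 in HCC1937+BRCA1. Of the 9, 2 were lower, CD14 and ITGAM (-0.69), or 22.2% beside 17.4% of all genes. PTPRC and CD3E, which define leukocytes and T cells, were not called, with PTPRC at 4.11 and 4.31 against 4.25 and 3.73. Of the 8 endothelial markers, PECAM1 (-0.72) and CDH5 (-0.57) were lower (25%, beside 17.4% of all genes). Mean levels of the 8 were 6.14 to 6.22 in HCC1937 and 5.99 to 6.05 in HCC1937+BRCA1. Of the 10 fibroblast markers, FAP was higher (1.69 ± 0.16), or 10% beside 14.2% of all genes. With the arrays shifted to one median or without moderation, 2 of the 10 were higher. Mean levels of the 10 were 5.74 to 5.88 in HCC1937 and 6.02 to 6.03 in HCC1937+BRCA1. The part of other cells in the results was not tested, and array intensities have no true zero to set a marker against. In bulk RNA, fewer cells of a type and less RNA per cell cannot be told apart.

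Structural and adhesion families are given beside 14.2% higher and 17.4% lower over all genes. Of 10 laminin genes, which encode chains of the basement membrane, 5 were higher and 0 lower by limma, as at an unadjusted p under 0.05, led by LAMB1 (1.32 ± 0.10), and 6 of the 43 collagen genes were higher and 2 lower (14% and 4.65%), with COL14A1 at 1.43 and COL5A2 at -1.45. Of 24 integrin genes 6 were higher and 4 lower (25% and 16.7%). ITGB6 measured 8.40 and 8.47 against 11.03 and 10.90, a difference of 2.52 ± 0.10, and ITGA5, a subunit of the fibronectin receptor, differed by 1.64. Of 48 keratin genes 4 were higher and 8 lower (8.33% and 16.7%), the latter with KRT13 (-2.07) and KRT4 (-1.43). The 4 became 2 without either HCC1937+BRCA1 array without COH29, without HCC1937 COH29 replicate 2 or with only the 4 arrays compared, and 1 without genes of low level. Of 31 serpin genes 5 were higher and 9 lower (16.1% and 29%), the 9 being 4 without genes of low level, and SERPINE2 was higher by 2.97 ± 0.15 and SERPINB3 lower by -2.85 ± 0.23. Of 12 aldo-keto reductase genes, 4 were lower and 1 higher (33.3% and 8.33%). The steroid and aldehyde reductase genes AKR1C1, AKR1C2 and AKR1C3, which are closely alike in sequence, were lower by -3.11, -3.26 and -1.38. AKR1B10 was higher by 1.13, a call that ended without moderation. HMOX1 (heme oxygenase) was higher by 1.14 ± 0.09.

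In cholesterol synthesis 8 of 17 genes were higher and 1 lower (47.1% and 5.88%, beside 14.2% and 17.4% of all genes). The median was 0.24 with and 0.35 without COH29. INSIG1, which restrains sterol synthesis, measured 8.80 and 8.73 against 10.13 and 10.40, a difference of 1.50 ± 0.10 beside 0.52. CYP51A1 and FDPS differed by 0.90 and 0.70 and HMGCS1, an early enzyme of the pathway, by -0.99. The 1 lower became 2 without HCC1937 COH29 replicate 1, without genes of low level and with a mean-variance trend. EREG, a ligand of the EGF receptor, measured 11.02 and 11.01 against 9.79 and 10.00, a difference of -1.12 ± 0.11 beside 0.30 without COH29, and its change of -1.42 was called without each array in turn. NRG4, another ligand, was higher by 2.04.

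Apoptosis regulators were split, 8 of 27 higher and 8 lower (29.6% each, beside 14.2% and 17.4% of all genes). TNFRSF10D measured 6.74 and 6.84 against 10.21 and 10.30, while its ligand gene TNFSF10 (TRAIL) was lower by -1.12 ± 0.11. PMAIP1 (NOXA), which promotes cell death, was higher by 0.81 and MCL1, which restrains it, by 0.77. The 8 lower became 4 without HCC1937 COH29 replicate 2 and without HCC1937+BRCA1 COH29 replicate 1.

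The differences were unevenly spread over the chromosomes, in gene order from RefSeq's table. On chromosome 13, 46.7% of 317 genes were lower and 4.1% higher, and on chromosome 10, 43.7% of 679 were lower and 4.86% higher, beside 17.4% and 14.2% over all genes. On chromosome 5, 38.5% of 782 genes were lower. On chromosome 7, 29.7% of 833 genes were higher and 5.4% lower, and on chromosomes 18 and 2 23.9% and 20.9% were higher. Chromosome medians with and without COH29 were -0.24 and -0.24 for chromosome 13, -0.21 and -0.21 for chromosome 10, and 0.14 and 0.12 for chromosome 7.

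In 17905 overlapping windows of 21 neighbouring genes, the 1st and 99th percentiles of the median difference were -0.65 and 0.40. Window medians with and without COH29 correlated with r = 0.9, as a description of overlapping windows. The largest was on chromosome 15, from PWAR6 to SNORD116-29, with a median of 1.78, where 20 of 21 genes were higher. SNORD116-21, one of its small nucleolar RNA genes, measured 6.58 and 6.94 against 9.16 and 8.89, a difference of 2.27 ± 0.17. The copies are near-identical, so they are not separate measurements. On chromosome 19, 15 of 21 genes from FPR2 to ZNF808 were higher (median 0.97), led by ZNF649 (2.70) and ZNF528 (2.55). On chromosome 5, 14 of 21 protocadherin genes and neighbours from PCDHA11 to PCDHB15 were higher (median 0.75), led by PCDHB8 (2.07 ± 0.17), on chromosome 2, 12 from DAPL1 to COBLL1 with 3 lower (median 0.70), among them DPP4 (1.20), and on chromosome 9, 14 from GLDC to RRAGA (median 0.69), led by MPDZ (2.37).

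Runs of lower genes lay on chromosome 13, from KBTBD6 to GTF2F2 (median -0.93, 15 of 21 lower), where DNAJC15, a mitochondrial co-chaperone gene, measured 10.41 and 10.41 against 7.28 and 7.08 (-3.23 ± 0.11) and EPSTI1 differed by -2.18. On chromosome 5 the run from BHMT to RPS23 had a median of -0.93 with 14 of 21 lower, led by CMYA5 (-2.19) and the ribosomal protein gene RPS23 (-1.44), and that from GLRX to EFNA5 one of -0.83, led by MACIR (-2.74) and ERAP1 (-1.71), a peptidase of antigen processing. Between MAN2A1 (-1.50) and CCDC112 on chromosome 5, 15 of 21 were lower and 2 higher (median -0.86), and from KCNK18 to SEC23IP on chromosome 10, 15 were lower (median -0.83), led by PDZD8 (-1.23). On chromosome 10, 15 of 21 genes from ENTPD7 to TWNK were lower (median -0.81), among them CHUK (-1.31), a kinase of the NF-κB pathway, and HIF1AN (-1.12), an inhibitor of hypoxia-inducible factor. The mismatch repair gene MSH3 also lies in the run from BHMT to RPS23. Gene list counts were set against all genes and not against single chromosomes. The part of such runs in those counts was not tested. Copy number was not measured, and its part in these runs was not tested.

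**Figure D5:**
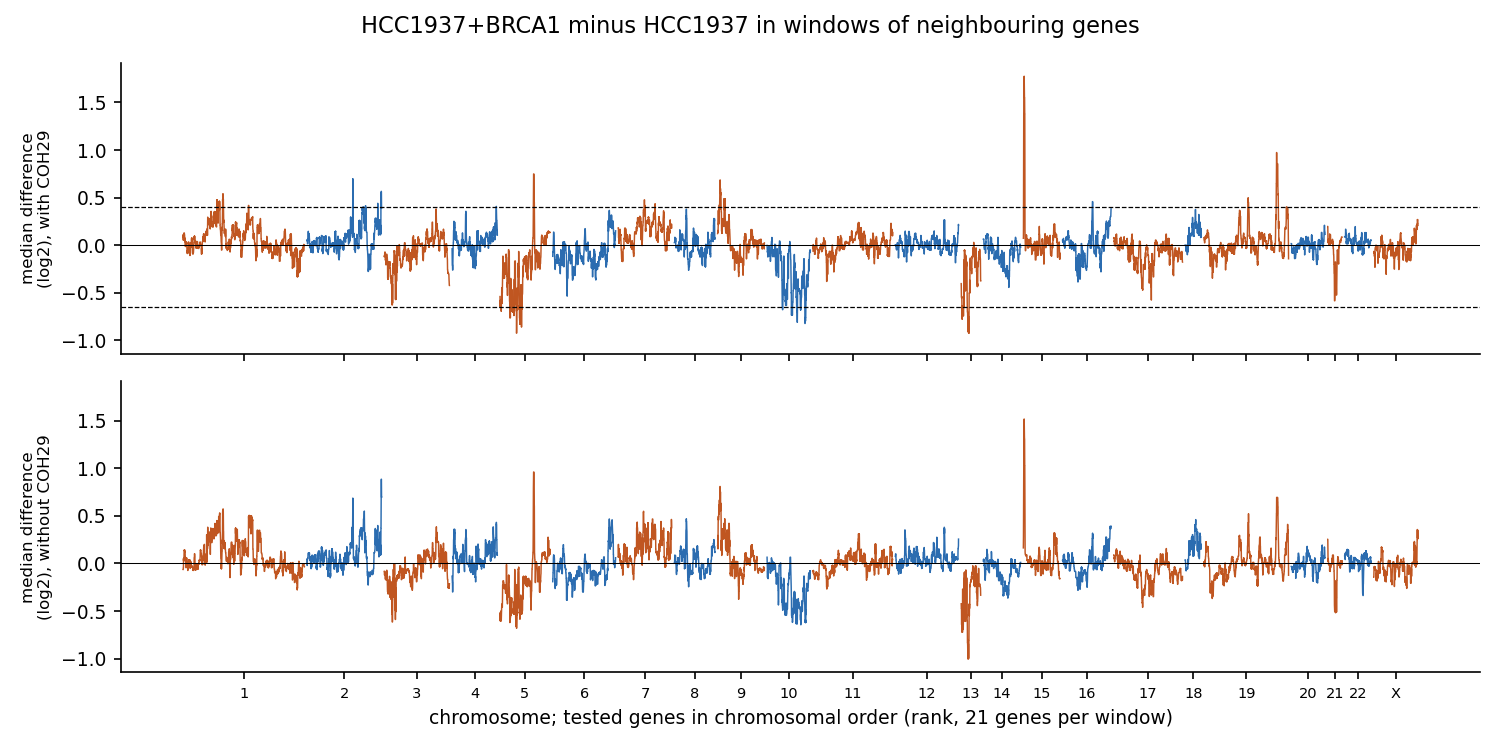
Median line difference (log2, y axis) in windows of 21 neighbouring genes, with COH29 (top) and without it (bottom), along tested genes in chromosomal order (x axis, alternating colours by chromosome). Dashed lines mark the 1st and 99th percentiles with COH29, -0.65 and 0.40; the highest window, on chromosome 15, reaches 1.78, and chromosomes 5, 10 and 13 hold runs below -0.65 in the upper panel.

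Zinc finger genes named ZNF were higher for 144 of 480 members and lower for 65 (30% and 13.5%, beside 14.2% and 17.4% of all genes). Their median was 0.11 with and 0.14 without COH29. ZNF542P measured 5.77 and 5.72 against 8.85 and 8.67, a difference of 3.01 ± 0.13, and ZNF470, ZNF577 and ZNF518B differed by 2.71, 2.19 and 1.76. The 65 lower became 40 without HCC1937 COH29 replicate 2 and 41 without moderation. Mitochondrial ribosomal protein genes were lower for 25 of 73 and higher for 9 (34.2% and 12.3%), led by MRPS27 (-1.28 ± 0.10), and the 9 became 5 without the first HCC1937 COH29 array or without either COH29 array of HCC1937+BRCA1. Of 360 olfactory receptor genes, a family that mostly lies at background in breast cells, 8 were higher and 7 lower (2.22% and 1.94%), with 18 and 9 without HCC1937 COH29 replicate 1, 3 and 8 without its replicate 2, 1 and 1 without genes of low level, and 5 and 4 without moderation.

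Small RNA genes were described with 2 lists chosen after seeing the values. Of 176 small nucleolar RNA genes, 52 were higher and 18 lower (29.5% and 10.2%, beside 14.2% and 17.4% of all genes). The 52 became 32 without HCC1937+BRCA1 COH29 replicate 1 and 29 without moderation. The 52 include 19 of the 20 near-identical SNORD116 copies, and of the other 156 genes 33 were higher and 18 lower (21.2% and 11.5%). Of 173 microRNA genes, 5 were higher and 7 lower (2.89% and 4.05%), with 8 and 7 without HCC1937 COH29 replicate 1, 3 and 5 without its replicate 2, 5 and 2 without HCC1937+BRCA1 COH29 replicate 1, 0 and 4 without genes of low level, and 2 and 2 without moderation. The probe sets read the gene or its precursor and not the mature microRNA. MIR27A measured 7.86 and 8.21 in HCC1937 and 7.15 and 7.14 in HCC1937+BRCA1, a difference of -0.89 ± 0.11. MIRLET7A2 measured 5.06 and 4.98 against 5.87 and 6.25, higher by 1.04 ± 0.15, and MIR99A was higher by 0.58 ± 0.10. The main mature products of these genes are shown with the seed, bases 2 to 8, in capitals, from RefSeq (GRCh38.p14), and the 3 seeds differ.
hsa-miR-27a-3p: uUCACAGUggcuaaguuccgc
hsa-let-7a-5p: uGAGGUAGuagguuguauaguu
hsa-miR-99a-5p: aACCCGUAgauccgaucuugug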

How the data were processed

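RNA of 8 samples was measured on Affymetrix gene arrays, 2 per line and condition. The deposited values are log2 intensities that the authors made with RMA and Partek, per the submitters' processing notes; versions and builds are not given in the sources used here. Of 33297 probe sets, 19460 name 1 gene, 1754 several and 12083 none in the platform annotation, and 19433 matched RefSeq's table (GRCh38.p14). Of the probe sets of a gene (769 of the 18417 genes had several), the one brightest on average was used. All 8 columns were mapped from the titles.

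limma 3.58.1 (R 4.3.3) was fitted to 4 group means on all 8 arrays, with eBayes and Benjamini-Hochberg adjustment over all genes. The median SE reflects 2 arrays per group. Tested on simulated data for the line difference under COH29 (18417 genes), it recovered 65.7% of 67 genes changed by 0.5, 98.5% of 67 by 1 and 100% of 66 by 2. It also called 10 unchanged genes. The simulated noise was independent between genes, and far fewer genes were changed than were called in the data. These shares are therefore not the sensitivity of the real comparison. Alternatives left out genes below the 30th percentile of level, shifted arrays to one median, applied cyclic loess, used a trend with robust moderation or no moderation, added a replicate block, averaged probe sets, fitted only the 4 arrays compared, required a log2 difference of at least 1, or left out each array.

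Members and lists were chosen with earlier results of these data known, and 2 of 47 lists after these values were seen. Named genes were BRCA1, RRM1, RRM2, RRM2B and CDKN1A, the 12 largest differences in each direction among called genes whose arrays do not overlap, the 6 largest called changes in each direction, up to 5 called members per list with the smallest p, and up to 4 per window. Genes named outside this rule, chosen after their values were seen, are ASNS, ATF3, ATF4, BST2, CD3E, CEBPG, DDIT3, DUSP1, EGR1, FGF21, IL1A, IL6, ISG15, MT1H, MT3, MTF1, NDRG1, PARP9, PTPRC, RIGI, SAMD9, SLC30A1, SLC30A10, TYMS, USP18 and VTRNA1-1.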

Additional observations from a re-analysis of the deposited data

Results flagged for a closer look

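For 176 genes the line difference itself differed with and without COH29 by the interaction term of the limma fit, and the named genes among them are given here with that change on the log2 scale, with COH29 minus without. The part of technical differences between these arrays was not tested.

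Among the genes with the largest upward changes were SPIC (2.37), H1-6 (2.20), CHAC1 (2.11), B3GALT5-AS1 (1.96), ANKRD37 (1.74) and FOS (1.71), and among those with the largest downward changes HAS2 (-2.33), LINC00417 (-1.84), ZNF826P (-1.75), CD180 (-1.73), CXCL1 (-1.64) and KCNK2 (-1.61).

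Stress genes changed upward in CTH (0.84), ALDH1L2 (1.04), SESN2 (1.46), DNAJB9 (0.87), ANGPTL4 (1.20), PFKFB4 (1.11), MT1X (1.06), MT1F (1.05), NR4A1 (1.03) and JUN (0.95). Genes of immunity and cell death changed in MX2 (0.80), IFI44L (-0.86), TNFRSF10D (1.67), PMAIP1 (0.68), TRIM31 (-1.52) and CD14 (1.00).

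Other changes were found in INSIG1 (0.97), EREG (-1.42), SPDEF (0.94), CDH5 (0.77), SLC43A1 (-0.74), TDRD12 (-0.98), H1-1 (-1.45), H3C10 (1.30), ZNF415 (-1.31) and NREP (-1.13).

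Of these 38 genes, 13 kept a called change without each of the 8 arrays in turn: TRIM31, H1-6, CHAC1, B3GALT5-AS1, HAS2, CD180, CXCL1, SESN2, ANGPTL4, PFKFB4, TNFRSF10D, EREG and H1-1. The change was called without moderation for CHAC1 and H1-1 among the 38.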

How the results depend on the processing

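Genes called different with COH29 numbered 4692 to 6502 under the other settings and 4522 to 5609 without any 1 array (higher 1979 to 2518, lower 2276 to 3091); requiring a log2 difference of at least 1 left 909 (436 higher, 473 lower), fewer by construction. Without COH29 that rule left 924 (487 and 437), and leaving out an array gave 3988 to 5751 (2043 to 3038 and 1839 to 2713). The 176 changes (100 upward, 76 downward) were least stable: 74 at a log2 change of at least 1 (44 and 30), 351 without genes of low level (163 and 188), 566 with a trend and robust moderation (239 and 327), 3 without moderation (2 and 1), and 41 to 67 without any 1 array (26 to 39 and 14 to 37); beyond fewer arrays or genes tested, the cause was not tested. Upward calls were 56.8% of them, 65.1% after a median shift, 66.7% after cyclic loess, 46.4% without genes of low level and 42.2% with the trend. The line difference of SPIC with COH29, -0.14 and not called, was -0.61 to 0.33 without any 1 array, at 0.33 and 0.21 without replicate 2 of HCC1937 COH29 and of HCC1937+BRCA1 COH29. Of 271 named genes called with COH29, 251 were called with the same sign in every setting. Most of them were chosen for a large difference or a small p in these same data, which favours such stability.

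Replicate numbers share only a number: deviations of same-numbered arrays correlated with r of -0.204 to 0.26 between groups. With the replicate block, 5460 genes differed with COH29 and 5389 without, and 106 changed (61 upward, 45 downward). Fitting only the 4 arrays compared does not apply to the change. Genes near background are limited by signal, and 2 arrays per group limit all values.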

Other observations

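NRF2 and antioxidant genes were split with COH29, 8 of 26 higher and 9 lower in HCC1937+BRCA1 (30.8% and 34.6%, beside 14.2% and 17.4% of all genes), and 5 were higher once HCC1937+BRCA1 COH29 replicate 2 was left out. GPX2, a glutathione peroxidase, was lower by -1.43. Solute carrier genes, which encode membrane transporters, were lower for 81 of 370 and higher for 39 (21.9% and 10.5%), with the zinc importer gene SLC39A8 at -1.50 and the glutamate transporter gene SLC1A3 at -1.61.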
